A study of Mus musculus with 15 samples.

Results

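Messenger RNA of mouse T helper cells kept in Th17 conditions was compared with that of cells kept in Th1 conditions, gene by gene, beyond the markers that usually define the lineages. The members of the comparison are all genes that passed a filter on low counts: 12591 of the 27179 genes in the count table. They were measured in 10 of the study's 15 libraries, 5 labelled Th17 and 5 labelled Th1. The other 5, labelled Tfh (T follicular helper), share the model fit and are given only beside genes of the comparison.

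All cells carried the genotype B6.Cg-Ifngtm3.1Lky-Il17atm1.1Lky, in which both cytokine genes are altered in every group. As background, the Ifng allele carries a yellow fluorescent reporter and the Il17a allele a truncated human NGFR on the cell surface as its reporter. Naive CD4 T cells were stimulated for 3.5 days on plate-bound antibodies against CD3 and CD28, stained and sorted into Trizol LS, and libraries were prepared from 100 ng of RNA. The design text gives the Th1 sort as positive for interferon gamma. It names no gate for the Th17 cells. The sources used here do not give the cytokines in either medium. Ifng therefore reflects the sort and is no finding, and Il17a may do so. Other genes may follow the sort as well. Culture condition and sort cannot be told apart for any gene of the comparison. The cells were differentiated in culture, and the labels give no age of the mice. The labels leave unsaid whether the 5 libraries of a group are 5 mice or 5 cultures. The p-values therefore reflect only the variation among these libraries, which may be technical.

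Th1 and Th17 cells are both effector forms of the CD4 T cell. Th1 cells, directed by the transcription factor T-bet (Tbx21), make interferon gamma and act on macrophages. Th17 cells make IL-17A and IL-17F and act on epithelial cells and neutrophils. Besides these products, effector cells differ in the receptors through which they sense cytokines, chemokines and metabolites, and in the enzymes and transporters that feed them.

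Total counts ranged from 8.82 to 11.6 M in the Th17 libraries and from 7.34 to 25.2 M in the Th1 libraries. M is mega, and levels are CPM, counts per M of the TMM-scaled total. They are given as mean ± SD (n = 5). A log2 fold change is Th17 minus Th1 and is given ± its standard error. The principal component with the largest share of the variance, 57.9%, held all Th1 libraries between -105.3 and -101.5 and all Th17 libraries between 32.8 and 37.6. Library Tfh 1 stood apart from the other Tfh libraries on the next component (10.3% of the variance). Within a group the counts varied with GC content: the rank correlation of a library's deviation from its group with a gene's GC content ran from -0.65 to 0.70. Across genes, that of the Th17 minus Th1 fold changes with GC content was -0.0505 (91.6% of the tested genes had a GC value), as a description of these libraries. Cd4 stood at 551 ± 72 CPM in Th17 and 593 ± 117 CPM in Th1, and Cd3e, a chain of the CD3 complex, at 855 ± 141 and 559 ± 143 CPM, so the defining markers of the labelled cell type were present in both groups.

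Marker lists of other cells were low in both groups, and for B cells, myeloid cells, gamma-delta T cells and MHC class II every Th1 library was above every Th17 library. The summed level of 11 B cell genes was 1.76 to 5.01 CPM in Th17 and 17.4 to 28.4 CPM in Th1 libraries, with Pax5 at 0 in all 10. For 18 myeloid and dendritic cell genes the sums were 4.33 to 11.4 and 14.2 to 30.1 CPM, with Lyz2, S100a8, Clec9a, Siglech and Cd209a at 0. Both CD8 genes summed to 6.19 to 16 and 7.29 to 26.1 CPM. Sums for 9 natural killer and innate lymphoid genes were 4.15 to 8.84 and 8.51 to 13.5 CPM, with Ncr1 and Klra8 at 0, and for 5 gamma-delta T cell genes they were 14 to 20.6 and 26.8 to 52.5 CPM. The 7 MHC class II genes summed to 50.6 to 74.3 CPM in Th17 and 112 to 210 CPM in Th1. The 7 erythroid and platelet genes stayed at or below 0.741 CPM. What part these cells had in the results below was not tested. In bulk RNA, more cells of a type and more RNA per cell cannot be told apart.

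The 4 fixed markers separated the groups as labelled. Il17a (gene ID 16171, chr1:20730905-20734496 on GRCm38) stood at 236, 189, 216, 254 and 230 CPM in Th17 libraries 1 to 5, at 0 in Th1 libraries 1, 2 and 4, and at 0.127 and 0.17 CPM in Th1 libraries 3 and 5. Il17f (gene ID 257630, chr1:20777146-20785274) stood at 12000, 10700, 10400, 12000 and 11200 CPM in Th17 and at 5.75, 2.9, 12.9, 1.38 and 14.9 CPM in Th1. Neither gene overlapped between the groups, and the level of Il17f in Th17 cells was far above that of Il17a in the same libraries. The scale does not correct for gene length, but the longest transcripts are of similar length (1170 bases for Il17a and 1180 for Il17f). The Il17a allele carries a reporter, and what part that had in its counts was not tested. Ifng (gene ID 15978, chr10:118441046-118445894) stood at 1000, 762, 693, 775 and 967 CPM in Th1 libraries 1 to 5 and at 0.351, 0.635, 1.02, 0.283 and 0.261 CPM in Th17. Tbx21 (gene ID 57765, chr11:97098007-97115331) stood at 130, 145, 246, 243 and 143 CPM in Th1 and at 1.52, 3.28, 3.23, 3.49 and 1.22 CPM in Th17. Every Th1 library was above every Th17 library for both. Of 14 tested genes on a list of usual Th17 markers, 13 were higher in Th17 and 0 lower, and of 15 usual Th1 markers 14 were lower and 0 higher. Over all genes tested, 19.0% were higher in Th17 and 17.8% lower. Since the Th1 cells were sorted for interferon gamma, these marker counts describe the groups and are no separate support for the labels.

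Over all genes, 4642 of 12591 (36.9%) differed at an adjusted p under 0.05 with edgeR's quasi-likelihood test, 2397 higher in Th17 (19.0%) and 2245 lower (17.8%). At 4-fold or more, 509 were higher (4.04%) and 657 lower (5.22%). For 3628 genes (28.8%) the 5 Th17 and 5 Th1 libraries did not overlap. The median log2 fold change was 0.03. Of the calls, 51.6% were higher in Th17. With a correction for GC content within libraries this share was 41.3%, and that correction moved the median gene by -0.13 on the log2 scale, so small differences depend on the scaling. A gene is written below as higher or lower only where it passed this test.

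Genes were then grouped by role, and each group is read against these shares. The counts, shares and medians of the lists include usual lineage markers where they fit a list. Where a gene is called the largest increase or decrease below, the rank is by fitted fold change among members of the named lists that passed the test, did not overlap between the groups and had a mean of at least 10 CPM in the higher group, with usual markers left out. Receptors had the largest share of calls of the 7 roles, with 65 of 182 tested genes higher and 62 lower in Th17 (69.8% called). Genes for secreted proteins had 19 of 49 higher and 15 lower (69.4%), and surface molecules 41 of 155 higher and 54 lower (61.3%). Transcription factors had 79 of 306 higher and 84 lower (53.3%), and enzymes 154 of 612 higher and 163 lower (51.8%). Transporters had 92 of 344 higher and 69 lower (46.8%), and signalling genes 167 of 697 higher and 157 lower (46.5%). All were above the 36.9% of all genes, and no test was made of the lists.

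**Figure D1:**
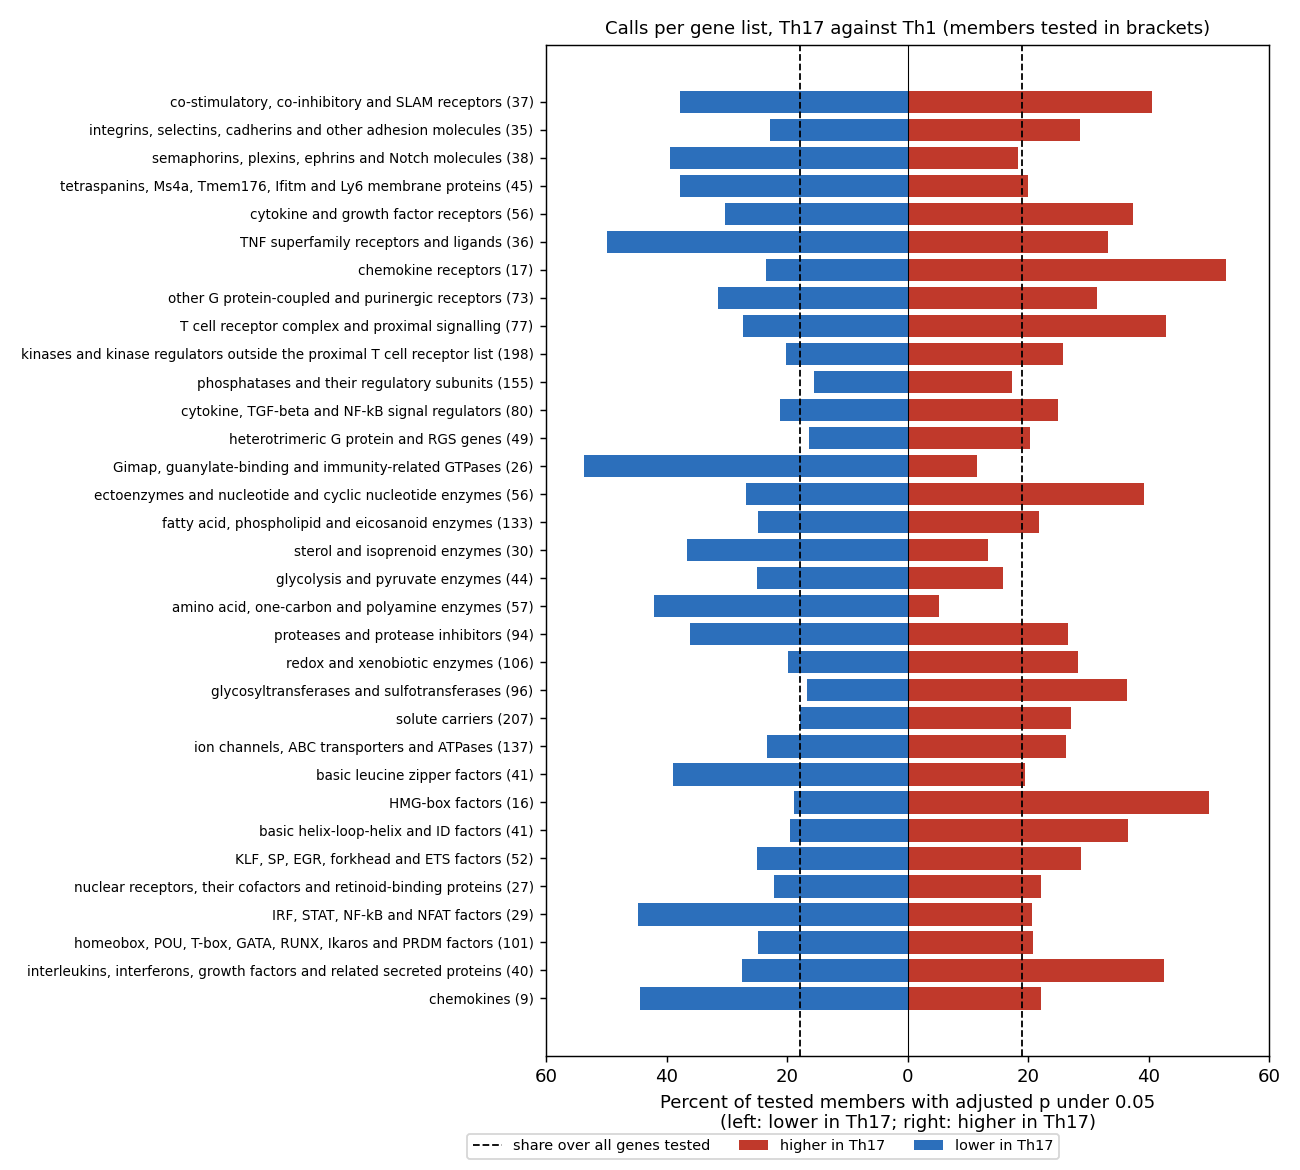
Share of tested members called in each of 33 gene lists, in percent, to the right for genes higher in Th17 and to the left for genes lower; dashed lines mark the shares over all genes, 19.0% and 17.8%. Chemokine receptors reach furthest to the right (52.9%), and amino acid, one-carbon and polyamine enzymes have the shortest bar on that side (5.26%) beside 42.1% lower.

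**Figure D2:**
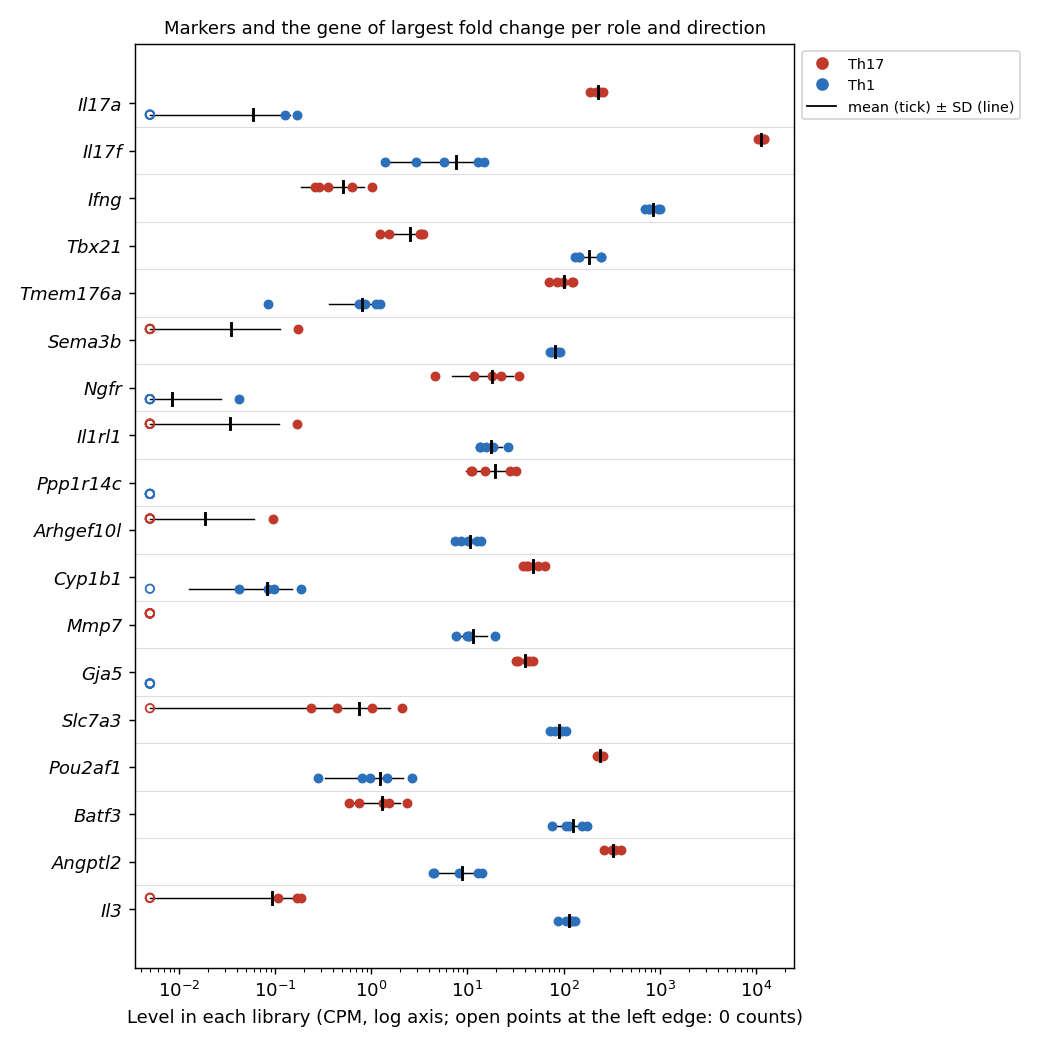
Level of the 4 markers and of the gene with the largest fold change in each role and direction, in CPM on a log axis, one point per library, with the mean as a tick and the SD as a line; libraries with 0 counts are open points at the left edge. The Th17 and Th1 points do not overlap for any of the 18 genes.

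Within the surface lists, the largest increase was in Tmem176a and the largest decrease in Sema3b. Tmem176a (gene ID 66058, chr6:48841483-48845364), which encodes a membrane protein of intracellular vesicles, stood at 70.5, 84.7, 99.3, 121 and 126 CPM in Th17 libraries and at 1.12, 0.87, 1.23, 0.738 and 0.0852 CPM in Th1. Its neighbour Tmem176b was 124 ± 31 CPM in Th17 and 1.61 ± 0.886 CPM in Th1 (log2 fold change 6.14 ± 0.30). Both were higher in each Th17 library than in any Th1 library, and the log2 fold change of Tmem176a was 6.90 ± 0.47 (edgeR adjusted p = 1.39e-09). Sema3b (gene ID 20347, chr9:107597674-107609241), a secreted semaphorin of the axon guidance family, stood at 72.5, 73.8, 91.3, 88.3 and 76.4 CPM in Th1, at 0 in Th17 libraries 1 to 4 and at 0.174 CPM in Th17 5. With 2 counts in all Th17 libraries together, the ratio of summed levels was 2150 (exact 95% interval 596 to 17800, for counting error only). Its fitted log2 fold change was -10.65 ± 0.40, and -12.76 without Th17 replicate 5.

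Co-stimulatory and co-inhibitory receptors were among the lists with most calls: 15 of 37 were higher, 14 lower and 8 did not pass (78.4% called), with a median log2 fold change of 0.08. Cd101, an inhibitory surface receptor, was 118 ± 10.6 CPM in Th17 and 2.26 ± 0.992 CPM in Th1 (50-fold). Cd86, a ligand of CD28 and CTLA-4 better known from antigen-presenting cells, was 49.7 ± 22.5 and 3.83 ± 1.47 CPM (13-fold). Cd83, another molecule of activated lymphocytes and dendritic cells, was 90.4-fold lower in Th17, and Slamf7, a SLAM family receptor of cytotoxic cells, 34.4-fold lower. These 4 genes were named by the rule of up to 2 genes per list and direction, so they do not describe the balance of the list. Btla (log2 fold change -3.01 ± 0.24) and Cd200 (-2.83 ± 0.15), an inhibitory receptor and an inhibitory ligand chosen after their values were seen, were lower in Th17 too.

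Semaphorins, plexins, ephrins and Notch molecules leaned to Th1: 7 of 38 were higher in Th17 and 15 lower, with a median of -0.56. Sema6d, a membrane semaphorin, was 20.1-fold higher in Th17 and Ephb6, an ephrin receptor without kinase activity, 4.85-fold higher. Sema3f was 90.2-fold lower, and Plxnc1 (17.7-fold) and Sema4a (17-fold), chosen after their values were seen, were lower as well. Of adhesion molecules, 10 of 35 were higher and 8 lower (median 0.05). Pecam1 (CD31, 2.43 ± 0.18) and Icam2, a ligand of LFA-1 (2.24 ± 0.20), were higher in Th17, while Selp, the P-selectin gene (-4.03 ± 0.30), and Cd93 (-3.57 ± 0.59) were lower, all on the log2 scale.

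Of tetraspanins, Ifitm, Ly6 and related membrane proteins, 9 of 45 were higher and 17 lower. The interferon-induced gene Ifitm3 was 7.71 ± 2.54 CPM in Th17 and 341 ± 84 CPM in Th1 (43.9-fold lower), and Ifitm2, chosen after its values were seen, 14.2 ± 4.07 and 312 ± 86.8 CPM. Ly6c2 had 1 count over all Th17 libraries and 19.3 ± 7.29 CPM in Th1, a ratio of 1090 (exact interval 196 to 43200, counting error only). Its fitted log2 fold change was -9.28, and -10.71 without Th17 replicate 1. Reads of Ly6c2 and its near-copy Ly6c1, and of the Ifitm genes, may be split between copies, since the handling of reads with several matches is not given.

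The cytokine and growth factor receptors changed in both directions, 21 of 56 higher in Th17 and 17 lower, with a median of 0.10 on the log2 scale. Il17re, a chain of the receptor for IL-17C, was 43.6 ± 10.5 CPM in Th17 and 0.348 ± 0.359 CPM in Th1 (113-fold). Acvr2a, a type II receptor for activins, was 11.2-fold higher, and both chains of the TGF-β receptor, chosen after their values were seen, were higher as well: Tgfbr1 by 1.52 ± 0.25 and Tgfbr2 by 1.47 ± 0.11 on the log2 scale. Il1rl1 (gene ID 17082, chr1:40404864-40465418), the receptor of IL-33, stood at 26.1, 13.4, 13.4, 15.6 and 18.6 CPM in Th1, at 0.17 CPM in Th17 3 and at 0 in the other 4 Th17 libraries. The ratio of summed levels was 419 (exact interval 116 to 3460, counting error only); the fitted log2 fold change was -8.44 ± 0.61 (edgeR adjusted p = 2.6e-09), and -10.55 without Th17 replicate 3. Il1r2, the decoy receptor of IL-1, was 38.9-fold lower in Th17.

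In the TNF superfamily, 30 of 36 tested receptors and ligands differed, 12 higher in Th17 and 18 lower (83.3% called), with a median of -0.37. The largest increase within the receptor lists was read as Ngfr (gene ID 18053, chr11:95568818-95587698), the low-affinity nerve growth factor receptor. It stood at 11.6, 4.55, 17.8, 34.4 and 22.5 CPM in Th17 libraries 1 to 5, at 0.0424 CPM in Th1 3 and at 0 in the other Th1 libraries. Its fitted log2 fold change was 9.40 ± 0.79, and 10.47 without Th1 replicate 3; on the 1 count in Th1 the ratio was 1200 (exact interval 214 to 47300, counting error only). The Il17a allele of these mice carries human NGFR as its reporter, and Ngfr counts ran with Il17a counts across the groups: 974 and 11686 in Th17, 87 and 737 in Tfh, and 1 and 5 in Th1. That is 8.33 Ngfr counts per 100 Il17a counts in Th17 and 11.8 in Tfh. Within Th17 the figure ran from 2.41 to 13.5, and in Tfh 1 it was 68. Whether these reads came from the reporter or from the mouse gene was not tested.

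Tnfrsf23, a decoy receptor of the ligand TRAIL, was 21.1 ± 3.02 CPM in Th17 and 3.82 ± 1.26 CPM in Th1. Tnfsf8, the CD30 ligand, was 5.42 ± 1.54 CPM in Th17 and 134 ± 16.6 CPM in Th1 (24.6-fold lower), and Tnfrsf13c, the receptor of BAFF, was 18-fold lower. Tnfrsf13c is also typical of B cells, whose marker sum was higher in Th1 (17.4 to 28.4 against 1.76 to 5.01 CPM).

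Chemokine receptors had the highest median of any list with more than 15 members, 1.55 on the log2 scale: 9 of 17 were higher in Th17, 4 lower and 4 did not pass. Cxcr6, the receptor of CXCL16, was 75.2 ± 8.81 CPM in Th17 and 0.573 ± 0.371 CPM in Th1 (124-fold), and Ccr2, the receptor of CCL2, was 12.2 ± 4.57 and 1.66 ± 1.1 CPM. Cxcr2 and Cxcr1, which bind ELR chemokines and are best known from neutrophils, went the other way. Cxcr2 was 40.1 ± 6.29 CPM in Th1 and 0.138 ± 0.189 CPM in Th17 (log2 fold change -7.94 ± 0.47; -8.54 without Th17 replicate 3 and -8.55 without Th17 replicate 5). Cxcr1 was 81.1 ± 11.8 CPM in Th1 and 3.01 ± 1.66 CPM in Th17. The sum of the 18 myeloid and dendritic cell genes was also higher in every Th1 library (14.2 to 30.1 against 4.33 to 11.4 CPM), with Lyz2, S100a8, Clec9a, Siglech and Cd209a at 0 in all 10. Its part in these values was not tested.

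Other G protein-coupled and purinergic receptors were split evenly, 23 of 73 higher and 23 lower. Gpr15, a gut-homing receptor, was 239 ± 15.5 CPM in Th17 and 0.787 ± 0.373 CPM in Th1 (275-fold), and Lpar6, a receptor of lysophosphatidic acid, was 27.3-fold higher. Ffar2, a receptor of short-chain fatty acids, was 25.6 ± 2.84 CPM in Th1 and 0.114 ± 0.0861 CPM in Th17 (202-fold lower). P2rx3, an ATP-gated ion channel known from sensory neurons, was 19 ± 2.8 CPM in Th1 and 0.194 ± 0.292 CPM in Th17; its log2 fold change of -6.43 was -7.83 without Th17 replicate 5.

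**Figure D3:**
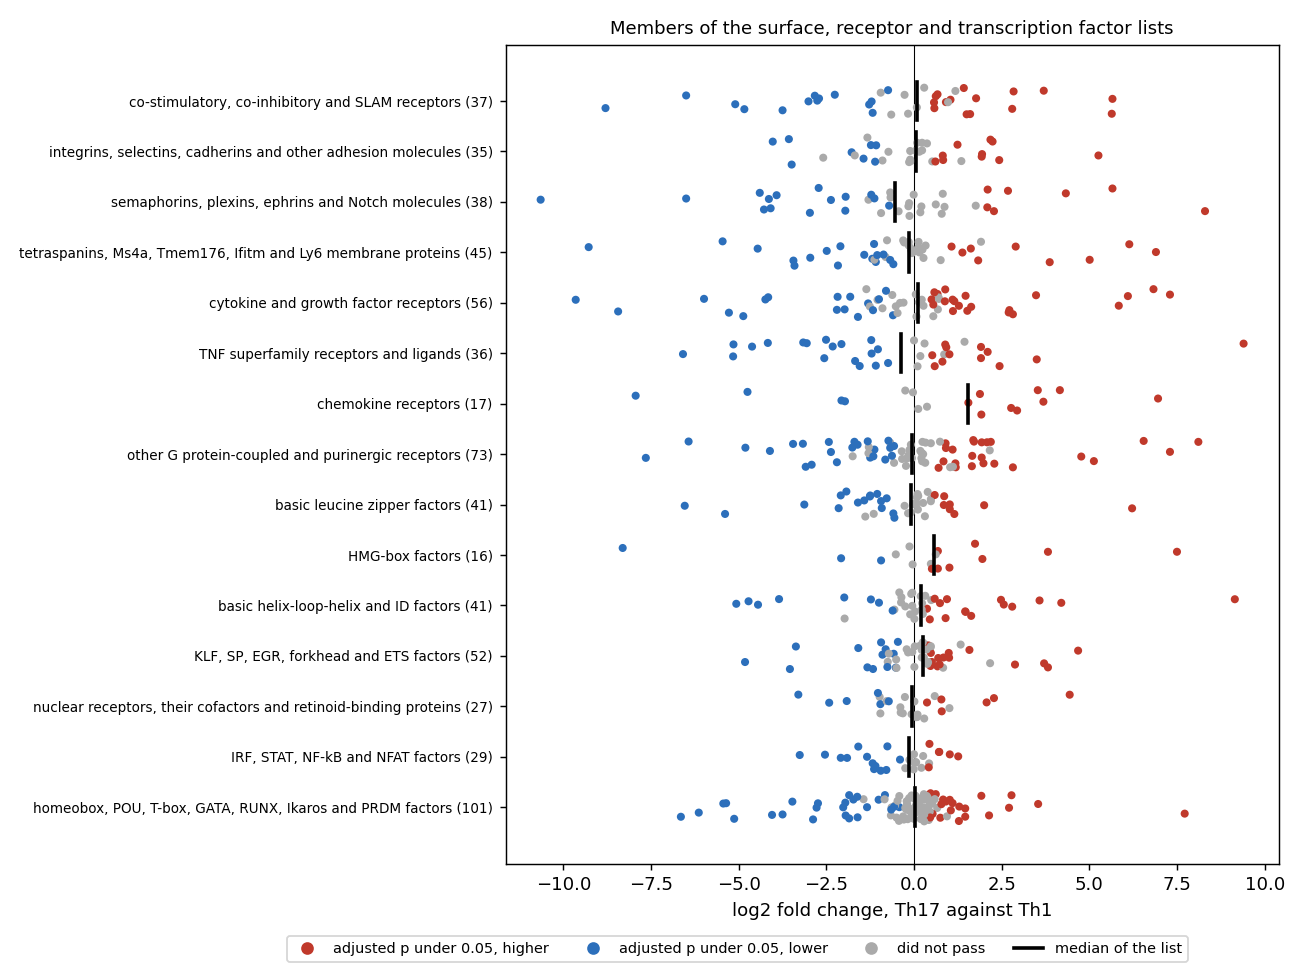
log2 fold change of every tested member of the surface, receptor and transcription factor lists (number of members in brackets), Th17 against Th1; points are genes, coloured by call, and black ticks are list medians. The tick of the chemokine receptors lies at 1.55 and that of semaphorins and plexins at -0.56, while most other medians lie near 0 with genes far out on both sides.

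Among signalling genes, proximal T cell receptor signalling leaned to Th17, with 33 of 77 genes higher and 21 lower (70.1% called, median 0.18). Rasgrp3, a Ras activator of lymphocytes, had no count in any Th1 library and 10.2 ± 2.92 CPM in Th17, at least 217-fold higher (against a floor of 3 counts over the 5 Th1 libraries). Txk, a Tec family kinase, was 32.2-fold higher in Th17. Themis, an adaptor that modulates T cell receptor signals, was 71.7 ± 19.9 CPM in Th17 and 561 ± 199 CPM in Th1, and Trat1, a transmembrane adaptor, was 0.0871 ± 0.195 and 15.7 ± 2.92 CPM (log2 fold change -7.20, and -10.41 without Th17 replicate 5). Rasgrp1 (-2.28 ± 0.18 on the log2 scale), chosen after its values were seen, was lower. Rasgrp3 and Rasgrp1 thus differed in opposite directions between the groups.

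The largest increase within the signalling lists was in Ppp1r14c, an inhibitor of protein phosphatase 1 (gene ID 76142, chr10:3365974-3464978). It stood at 32.1, 28, 15.1, 10.9 and 11.2 CPM in Th17 libraries 1 to 5 and had no count in any Th1 library, at least 413-fold higher in Th17. All Th17 libraries were high, with libraries 1 and 2 above the other 3. Ppp1r3d, a glycogen-targeting subunit of the same phosphatase, had 3 counts in Th1 and 10 ± 2.6 CPM in Th17 (ratio 215, exact interval 73.1 to 1050, counting error only; fitted log2 fold change 7.39, and 8.32 without Th1 replicate 4). Phosphatase genes as a list were called less often than all genes, 27 of 155 higher and 24 lower (32.9% against 36.9%, with no test of that difference). Dusp5, a nuclear ERK phosphatase, was 9.36-fold lower in Th17, and Tns1, tensin 1, 5.32-fold lower.

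The largest decrease within the signalling lists was in Arhgef10l, a guanine nucleotide exchange factor (gene ID 72754, chr4:140514485-140666007). It stood at 8.55, 10.2, 12.6, 13.9 and 7.49 CPM in Th1, at 0.0942 CPM in Th17 4 and at 0 in the other Th17 libraries. On that 1 count the ratio was 573 (exact interval 102 to 22600, counting error only), and the fitted log2 fold change of -8.42 was -9.84 without Th17 replicate 4. Rasgef1b (4.91-fold) and Fgd1 (4.88-fold), exchange factors for Ras-like GTPases and Cdc42, were higher in Th17, and Rassf4 was 12.5-fold lower.

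Of kinases outside the receptor list, 51 of 198 were higher and 40 lower. Sgk1, a salt-sensing kinase that takes part in IL-23 receptor expression in Th17 cells, was 158 ± 15.7 CPM in Th17 and 4.46 ± 0.937 CPM in Th1 (36.1-fold). Ddr1, a collagen receptor kinase, was 4.43-fold higher. Plk2 (9.93-fold) and the pseudokinase Trib3 (9.54-fold), a target of the stress factor ATF4, were lower in Th17. Among regulators of cytokine, TGF-β and NF-κB signals, 20 of 80 were higher and 17 lower. Smad3, which carries the TGF-β signal, was 155 ± 22.6 CPM in Th17 and 26.8 ± 2.85 CPM in Th1, and the ubiquitin ligase Peli2 was 10.6-fold higher. Smad7 (1.24 ± 0.19) and Pmepa1 (2.08 ± 0.23), TGF-β targets that dampen the pathway and were chosen after their values were seen, were higher on the log2 scale too. Tnip3, a partner of A20, was 37.3-fold lower in Th17 and Traf1 2.86-fold lower.

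G protein and RGS genes were called about as often as all genes (10 of 49 higher, 8 lower). Rgs10 was 620 ± 77.2 CPM in Th17 and 94 ± 16.1 CPM in Th1, and Rgs16 was 2.61-fold higher, while Rgs2 was 6.38-fold lower, so members of this family of G protein inhibitors differed in both directions. Gnal, a stimulatory G protein alpha subunit known from olfactory neurons, was 126 ± 9.84 CPM in Th1 and 7.14 ± 2.23 CPM in Th17. The immunity-related and Gimap GTPases leaned to Th1 most of all signalling lists, with 3 of 26 higher, 14 lower and a median of -0.81. Iigp1 (25.1-fold) and Gbp8 (24.1-fold), interferon-induced GTPases, were lower in Th17, as was Igtp (120 ± 7.14 and 629 ± 56 CPM), chosen after its values were seen. The 3 higher genes were Gimap9, chosen after its values were seen, Ifi47 (348 ± 31.5 and 123 ± 17 CPM) and Tgtp2 (25.9 ± 6.32 and 7.28 ± 2.19 CPM), although Ifi47 and Tgtp2 are themselves known as interferon-induced. Tgtp2 has a near-identical copy, Tgtp1, so its value is uncertain.

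Among enzymes, calls in amino acid, one-carbon and polyamine metabolism were mostly on the Th1 side. Of 57 tested members, 24 were lower in Th17, 3 higher and 30 did not pass, with a median of -0.52 against 0.03 for all genes. Cth, which makes cysteine from cystathionine, was 81.9 ± 3.33 CPM in Th1 and 1.69 ± 1.55 CPM in Th17 (49.2-fold lower). Aldh1l2, a mitochondrial folate enzyme, was 19.1 ± 4.5 CPM in Th1 and 0.153 ± 0.342 CPM in Th17 (106-fold lower; log2 fold change -6.72, and -10.68 without Th17 replicate 3). The other genes in this and the next sentences, apart from Kynu, were chosen after their values were seen. Asns, asparagine synthetase, was 326 ± 16.4 CPM in Th1 and 40.8 ± 3.34 CPM in Th17, and Gpt2, which makes alanine, was 22.7-fold lower. The 3 genes of serine synthesis and mitochondrial folate use that follow were lower by smaller factors: Phgdh 3.68-fold, Psat1 3.18-fold and Mthfd2 3.64-fold. Shmt2 was 2.44-fold lower, with overlap between the groups. Not all genes of mitochondrial folate use were lower: Mthfd1l (0.02 ± 0.12) and Mthfd2l (0.23 ± 0.39, both on the log2 scale) did not pass. Kynu, kynureninase of tryptophan breakdown, was 31.4-fold higher in Th17. Odc1 (0.40 ± 0.13, ornithine decarboxylase) and Mat2a (0.36 ± 0.13, methionine adenosyltransferase) were the other genes higher, and both lost their call with size factors of another kind or with the GC correction, among other settings.

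**Figure D4:**
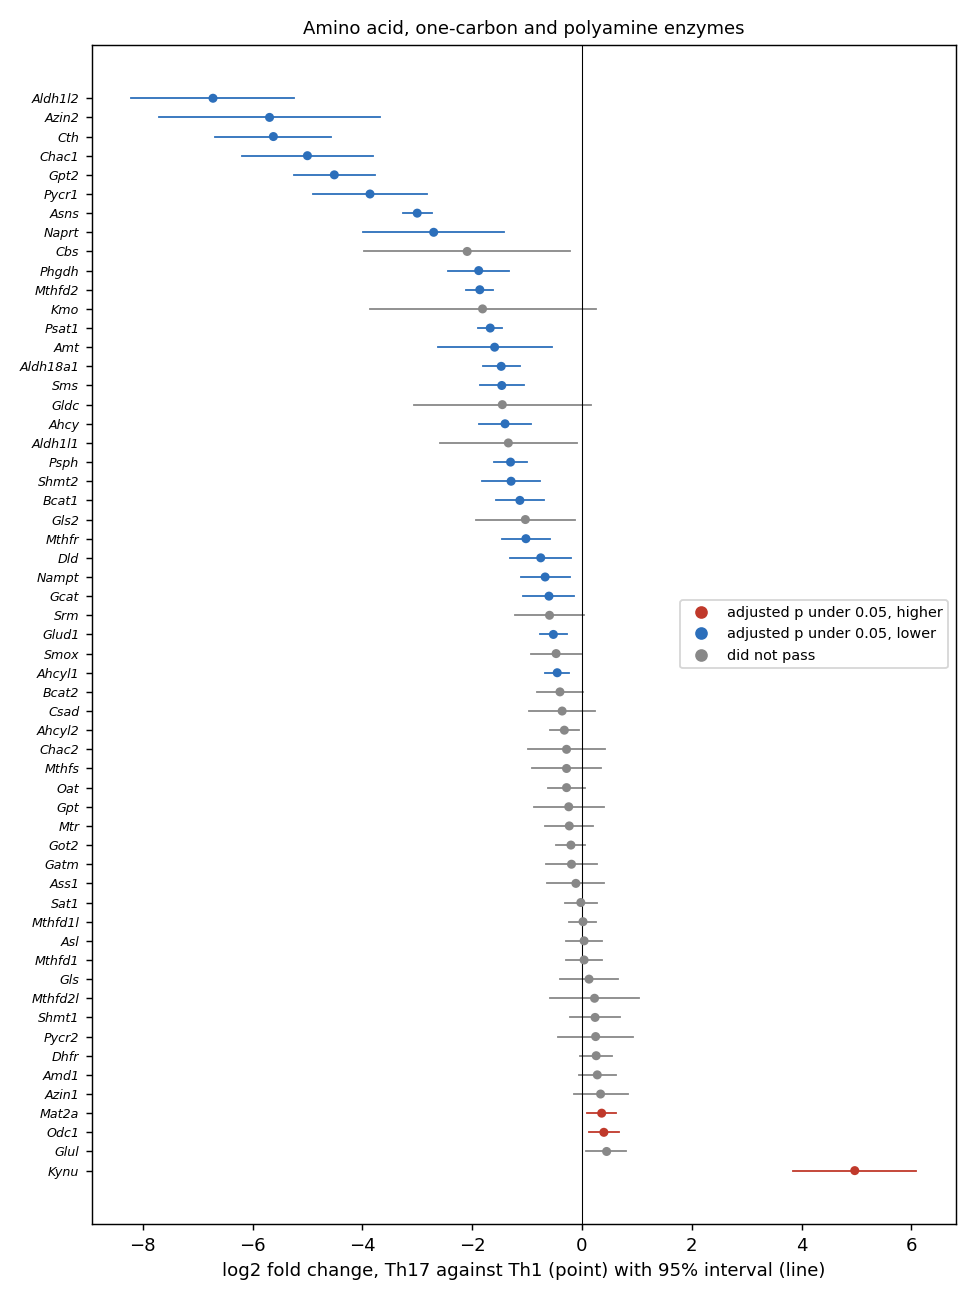
log2 fold change, Th17 against Th1, of all 57 tested amino acid, one-carbon and polyamine enzymes, with 95% intervals, in order of size; blue points were lower in Th17 (24), red points higher (3) and grey points did not pass (30). Aldh1l2 lies furthest to the left at -6.72, and Kynu furthest to the right at 4.97.

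Some genes known to respond, like Asns, to the transcription factor ATF4 are named here, without a list or a count of such genes. Trib3 (above), Atf3 and Pck2 came from the rule for named genes, and Atf4, Ddit3, Slc7a5, Slc3a2, Slc7a11 and Chac1, a member of the amino acid list, were chosen after their values were seen. Atf4 itself was 216 ± 10.1 CPM in Th17 and 515 ± 84 CPM in Th1 (log2 fold change -1.25 ± 0.12), and Ddit3, which encodes CHOP, 20.2 ± 3.8 and 76.7 ± 15.3 CPM. ATF4 is known to bind, with a C/EBP partner, an element with the letters TGATGNAA. This was searched on both strands in RefSeq windows of 250 bases before to 50 bases after a gene's start on GRCm38.p6, of which 9626 tested genes had at least 1. It occurred in 2.79% of those genes. Among those called at least 4-fold lower in Th17 the share was 4.79% (24 of 501), and among those called at least 4-fold higher 2.87% (11 of 383). Of the amino acid list, 43 members had a window. The element occurred in 3 of the 19 that were lower in Th17 (Asns, Chac1 and Pycr1) and in 0 of the other 24. No test was made of these shares, and a part of ATF4 in the differences was not tested. The part of each window before the start site is printed 5′ to 3′ with the match in capitals, because these 3 genes are among the larger decreases of the list; TTGCATCA is the same element on the other strand.
Asns upstream window, chr6:7693210-7693459, minus strand: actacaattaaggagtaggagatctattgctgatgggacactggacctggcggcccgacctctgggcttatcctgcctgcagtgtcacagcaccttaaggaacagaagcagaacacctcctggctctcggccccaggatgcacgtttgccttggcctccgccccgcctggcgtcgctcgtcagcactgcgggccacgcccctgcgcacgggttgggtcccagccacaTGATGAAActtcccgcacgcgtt
Chac1 upstream window, chr2:119350992-119351241, plus strand: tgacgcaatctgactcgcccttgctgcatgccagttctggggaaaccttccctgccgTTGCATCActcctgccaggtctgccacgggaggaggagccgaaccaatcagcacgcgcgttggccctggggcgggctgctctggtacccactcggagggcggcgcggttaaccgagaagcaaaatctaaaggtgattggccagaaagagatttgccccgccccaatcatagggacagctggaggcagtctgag
Pycr1 upstream window, chr11:120643749-120643998, minus strand: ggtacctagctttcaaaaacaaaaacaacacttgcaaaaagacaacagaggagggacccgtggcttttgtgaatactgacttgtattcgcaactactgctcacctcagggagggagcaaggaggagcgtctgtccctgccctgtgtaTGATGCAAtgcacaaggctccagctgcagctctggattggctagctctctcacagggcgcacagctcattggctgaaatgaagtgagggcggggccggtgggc

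Of the 3 genes printed, Asns was 7.98-fold, Chac1 32-fold and Pycr1 14.5-fold lower in Th17. The element also occurred in windows of Trib3, Atf3 and Pck2, each lower in Th17 and outside the list, and these matches are given with their flanks.
Trib3 match with flanks, chr2:152344029-152344056, minus strand: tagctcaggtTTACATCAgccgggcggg
Atf3 match with flanks, chr1:191183426-191183453, minus strand: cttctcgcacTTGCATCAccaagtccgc
Pck2 match with flanks, chr14:55540153-55540180, plus strand: gccttcaaagTTACATCAgtatcttaca
Trib3 was 9.54-fold, Atf3 42.1-fold and Pck2 8.75-fold lower in Th17. Among the other genes named by rule, the element was found at Hsd17b13, which was higher in Th17, and at Ifitm3, Themis and Traf1, which were lower. A match is a description of the letters in the window, not evidence of binding.

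The largest changes within the enzyme lists were in Cyp1b1 and Mmp7. Cyp1b1 (gene ID 13078, chr17:79706940-79715061), a cytochrome P450 known as a target of the aryl hydrocarbon receptor, stood at 63.7, 54.3, 40.3, 37.9 and 43 CPM in Th17, and at 0, 0.0967, 0.0424, 0.185 and 0.0852 CPM in Th1. All Th17 libraries were high and none came near the Th1 range (log2 fold change 9.04 ± 0.39, edgeR adjusted p = 2.29e-12). Ahr (408 ± 55.3 and 22.2 ± 3.21 CPM), on the list of usual Th17 markers, and its repressor Ahrr (9.21 ± 2.52 and 1.59 ± 1.24 CPM), chosen after its values were seen, were higher in Th17. Mmp7 (gene ID 17393, chr9:7692090-7699585), the metalloprotease matrilysin, stood at 19.1, 10.3, 9.83, 7.66 and 10.4 CPM in Th1 and had no count in any Th17 library, at least 198-fold lower. Of redox and xenobiotic enzymes 30 of 106 were higher and 21 lower. Sesn3, a stress-regulated inhibitor of mTORC1, was 4.83-fold higher, and Ncf1, a subunit of the phagocyte NADPH oxidase, was 256 ± 52.2 CPM in Th1 and 4.19 ± 1.92 CPM in Th17.

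Proteases and their inhibitors had 25 of 94 higher and 34 lower (62.8% called). Adam12 was 30.8 ± 1.95 CPM in Th17 and 0.051 ± 0.0761 CPM in Th1 (417-fold), and Adam19 (510 ± 31.9 and 16 ± 3.25 CPM) and the inhibitor Timp2 (233 ± 37.9 and 8.75 ± 2.01 CPM), both chosen after their values were seen, were higher as well. Serpinb1a, an inhibitor of neutrophil serine proteases, was 57.8-fold higher in Th17. Serpinb5, known as maspin, was 380 ± 91.8 CPM in Th1 and 1.2 ± 0.579 CPM in Th17 (305-fold lower), so 2 serpins of the same clade differed in opposite directions.

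Enzymes that act on nucleotides outside and inside the cell had 22 of 56 higher and 15 lower. Nt5e, the ectoenzyme CD73 that makes adenosine, was 775 ± 37.3 CPM in Th17 and 8.62 ± 1.96 CPM in Th1 (89-fold, log2 fold change 6.48 ± 0.18). Art2a, a surface ADP-ribosyltransferase with a near-copy, Art2b, was 26.6-fold higher (log2 fold change 4.73, and 5.54 without Th1 replicate 5), and its value is uncertain for that reason. Xdh, xanthine dehydrogenase of purine breakdown, was 122 ± 16.5 CPM in Th1 and 1.88 ± 0.533 CPM in Th17, and Enpp2, autotaxin, which makes lysophosphatidic acid, was 9.25-fold lower. Enpp2 was thus lower and the lysophosphatidic acid receptor Lpar6 higher in Th17.

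Lipid enzymes divided in both directions, 29 of 133 higher and 33 lower. Hsd17b13, a lipid droplet enzyme, had 2 counts in Th1 and 10.1 ± 2.66 CPM in Th17 (ratio 327, exact interval 90 to 2700, counting error only; log2 fold change 7.94, and 9.62 without Th1 replicate 3). Abhd15 was 51.7-fold higher, and Acsbg1, an acyl-CoA synthetase chosen after its values were seen, was 45-fold higher. Another acyl-CoA synthetase, Acsl6, was 25.5 ± 5.43 CPM in Th1 and 0.121 ± 0.169 CPM in Th17 (log2 fold change -7.64, and -8.30 without Th17 replicate 1), and the diacylglycerol kinase Dgkh was 26.6-fold lower. Of sterol enzymes 4 of 30 were higher and 11 lower, with a median of -0.03 on the log2 scale. Fdps, of isoprenoid synthesis, was 177 ± 23.5 CPM in Th17 and 386 ± 75.2 CPM in Th1. Soat2 was 15.6-fold lower in Th17 and its paralog Soat1, which also esterifies cholesterol, 1.65-fold higher; Hsd17b7 was 1.62-fold higher.

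Glycolysis and pyruvate enzymes were called about as often as all genes, 7 of 44 higher and 11 lower. Me2, mitochondrial malic enzyme, was 332 ± 18.1 CPM in Th17 and 95.8 ± 12.1 CPM in Th1. Pdp1 was 1.74-fold higher, a call that was lost when any of Th1 replicates 1 to 4 or Th17 replicates 2 or 3 was left out (log2 fold changes 0.68 to 0.80) and with the GC correction (0.58). The muscle enolase Eno3 was 6.09-fold lower, while Eno1, the main enolase, differed little (below). Glycosyltransferases and sulfotransferases leaned to Th17, with 35 of 96 higher, 16 lower and a median of 0.24. Gcnt2, which branches the I blood group glycan, was 159 ± 28.7 CPM in Th17 and 0.27 ± 0.111 CPM in Th1 (519-fold), and Chst2, a sulfotransferase of selectin ligands, was 14.2-fold higher. St8sia4, which makes polysialic acid, was 7.78-fold lower and Chst15 7.06-fold lower.

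Solute carriers had 56 of 207 higher and 37 lower in Th17. The largest decrease was in Slc7a3 (gene ID 11989, chrX:101079146-101090452), which imports arginine and lysine. It stood at 90.5, 81.8, 105, 95.6 and 72.8 CPM in Th1 and at 0.234, 0, 1.02, 2.07 and 0.436 CPM in Th17. The groups were far apart in every library (log2 fold change -6.82 ± 0.50, edgeR adjusted p = 3.32e-09, and -7.62 without Th17 replicate 4). Slc7a5 (91.1 ± 24.5 and 538 ± 150 CPM in Th17 and Th1) and Slc3a2 (142 ± 30.3 and 396 ± 132 CPM), the chains of the large neutral amino acid transporter, and Slc7a11, of the cystine transporter (0.655 ± 0.519 and 6.36 ± 2.59 CPM), were lower in Th17. Amino acid transporters were not all lower: Slc43a2, for neutral amino acids, was 6.69-fold higher and Slc16a10, for aromatic amino acids, 4.34-fold higher. Slc13a3, a dicarboxylate carrier, was 14 ± 3.91 CPM in Th1 and 0.127 ± 0.284 CPM in Th17 (log2 fold change -6.76, and -10.24 without Th17 replicate 2). Aqp3, a water, glycerol and hydrogen peroxide channel chosen after its values were seen, was 369 ± 39.2 CPM in Th17 and 27.4 ± 4.15 CPM in Th1.

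Of ion channels, ABC transporters and ATPases, 36 of 137 were higher and 32 lower. Gja5 (gene ID 14613, chr3:97032402-97053634), the gap junction protein connexin 40 known from heart and arteries, had the highest fitted log2 fold change (11.73), a value that rests on 0 counts in Th1. It stood at 47.9, 33.2, 31.9, 44.8 and 41.4 CPM in Th17 libraries 1 to 5 and had no count in any Th1 library, including the deepest with 25.2 M counts. It was at least 845-fold higher in Th17 (edgeR adjusted p = 2.93e-11). Trpm6, a magnesium channel, was 45-fold higher, while the potassium channel gene Kcnd1 (log2 fold change -5.17, and -5.78 without Th17 replicate 2) and Ano7 (27.4-fold) were lower.

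Within the transcription factor lists, Pou2af1 had the largest increase and Batf3 the largest decrease. Pou2af1 (gene ID 18985, chr9:51213690-51240079), the coactivator OCA-B best known from B cells, stood at 221, 231, 241, 257 and 242 CPM in Th17 and at 2.66, 0.967, 0.805, 0.277 and 1.45 CPM in Th1. It was high in all Th17 libraries, in which the B cell marker sum was 1.76 to 5.01 CPM (log2 fold change 7.72 ± 0.30). Batf3 (gene ID 381319, chr1:191098414-191108943), an AP-1 family partner, stood at 75.4, 113, 156, 175 and 105 CPM in Th1 and at 0.585, 0.741, 1.53, 2.36 and 1.31 CPM in Th17. Every Th1 library was above every Th17 library (log2 fold change -6.54 ± 0.33). Of basic leucine zipper factors 8 of 41 were higher and 16 lower, with a median of -0.09. Bach2, a repressor that restrains effector differentiation, was 604 ± 19 CPM in Th17 and 151 ± 9.52 CPM in Th1. Fos was 2.23-fold higher, and Atf3, which is induced by stress, was 62.9 ± 7.31 CPM in Th1 and 1.5 ± 0.493 CPM in Th17.

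HMG-box factors leaned to Th17, with 8 of 16 higher, 3 lower and a median of 0.57. Tox2, which takes part in Tfh and exhausted T cell programmes, was 19.1 ± 6.98 CPM in Th17 and 0.0961 ± 0.107 CPM in Th1 (181-fold, and 272-fold without Th1 replicate 5). Sox4, a TGF-β target, was 14.1-fold higher, and Tcf7, which encodes TCF-1 and was chosen after its values were seen, was 680 ± 135 and 203 ± 71.5 CPM. Sox5 was 4.22-fold lower in Th17 and Bbx 1.92-fold lower.

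Of helix-loop-helix factors, 15 of 41 were higher and 8 lower. Id2 was 424 ± 33.6 CPM in Th17 and 60.9 ± 16 CPM in Th1, and Mycn (log2 fold change -5.07, and -5.75 without Th17 replicate 4) and Lyl1 (-4.72, and -5.31 without Th17 replicate 4) were lower. Genes of the circadian clock appear on these lists in both directions. Arntl, which encodes the clock activator BMAL1, was 72.7 ± 3.5 CPM in Th17 and 12.3 ± 3.66 CPM in Th1 (5.91-fold), and Nr1d1, the nuclear receptor REV-ERBα that represses it, was 19.4 ± 4.8 and 3.91 ± 1.86 CPM (4.86-fold). Dbp, a target of BMAL1 chosen after its values were seen, was 8.75-fold lower in Th17, and Nr1d2, also so chosen, missed the threshold (13.2 ± 5.37 and 6.72 ± 4.63 CPM, 2.01-fold, edgeR adjusted p = 0.0543). It passed under 9 alternatives, among them the GC correction (adjusted p = 0.017), limma-voom (0.0269) and leaving out Th1 replicate 1 (0.00276).

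Forkhead, KLF, EGR and ETS factors had 15 of 52 higher and 13 lower. Foxf2 was 25.6-fold higher, and Klf2, which keeps T cells in recirculation, was 25 ± 3.93 CPM in Th17 and 1.76 ± 0.795 CPM in Th1. The ETS factors Etv5 (10.3-fold) and Etv4 (3.02-fold) were lower. Of nuclear receptors and their cofactors, 6 of 27 were higher and 6 lower. Rxra was 5.34-fold lower, and Crabp2, a retinoic acid carrier, was 71.4 ± 17.2 CPM in Th17 and 270 ± 18.8 CPM in Th1. Ncor1, a corepressor, was 1.29-fold higher, a call lost with the GC correction (log2 fold change 0.22, edgeR adjusted p = 0.0594; 0.37 without it).

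IRF, STAT, NF-κB and NFAT factors had 6 of 29 higher and 13 lower (65.5% called, median -0.13). Irf8, best known from myeloid cells, was 243 ± 56.3 CPM in Th1 and 25.4 ± 5.22 CPM in Th17 (9.56-fold lower), beside myeloid marker sums of 14.2 to 30.1 and 4.33 to 11.4 CPM. Nfatc1 (2.03-fold) and Irf2bpl (2.39-fold) were higher. In the list of homeobox, POU, T-box, GATA, RUNX, Ikaros and PRDM factors, 21 of 101 were higher and 25 lower. Ikzf3, Aiolos, was 342 ± 25 CPM in Th17 and 49.7 ± 5.63 CPM in Th1. Prdm1, which encodes BLIMP-1, was 43.3-fold lower in Th17, and Hopx, a homeodomain protein of effector Th1 cells, 41.1-fold lower (6.72 ± 2.35 and 278 ± 66.5 CPM).

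Of genes for secreted factors other than chemokines, 17 of 40 were higher and 11 lower (median 0.51). Angptl2 (gene ID 26360, chr2:33215951-33247725), an angiopoietin-like protein, stood at 343, 263, 316, 398 and 325 CPM in Th17 and at 4.49, 8.12, 14.1, 12.9 and 4.43 CPM in Th1. All Th17 libraries were far above the Th1 range (36.5-fold). Il2, the T cell growth factor, was 42.2 ± 10.1 CPM in Th17 and 2.1 ± 1.16 CPM in Th1 (20.2-fold). Its receptor chain Il2ra, chosen after its values were seen, was 2860 ± 203 and 5700 ± 345 CPM. Il3 (gene ID 16187, chr11:54265085-54267279), a growth factor of haematopoietic cells, stood at 131, 120, 106, 87.2 and 123 CPM in Th1 and at 0, 0.106, 0.17, 0.188 and 0 CPM in Th17. The groups did not overlap (log2 fold change -10.04 ± 0.35). Il24, an IL-10 family cytokine, was 725 ± 51.7 CPM in Th1 and 5.17 ± 2.08 CPM in Th17 (140-fold lower). Of 9 tested chemokines, 2 were higher and 4 lower. Xcl1 was 8.57-fold higher, and Ccl3 was 3.73-fold lower (36.2 ± 5.05 and 135 ± 19.4 CPM).

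Over all genes by the same criteria, leaving out unnamed genes and names of Rik, Gm or LOC form, the 6 highest fitted increases were Gja5, Cysrt1, Ppp1r14c, Gphb5, Rasgrp3 and Cd33, and the 6 strongest decreases Dnah7a, Sema3b, Dnah3, Chl1, Il3 and Tmod2. Several are known mainly from tissues other than lymphocytes. Cysrt1, a cysteine-rich tail protein (chr2:25238819-25239897), had no count in Th1 and 22.5 ± 7.95 CPM in Th17 (at least 477-fold higher). Gphb5, a glycoprotein hormone subunit (chr12:75411720-75416781), had 1 count in Th1 and 31.6 ± 11.6 CPM in Th17, a ratio of 1970 (exact interval 352 to 77700, counting error only); its log2 fold change of 10.19 was 11.25 without Th1 replicate 3. Cd33, a sialic acid-binding receptor of myeloid cells (chr7:43527399-43537424), had no count in Th1 and 10.1 ± 1.89 CPM in Th17 (at least 214-fold higher), although the myeloid marker sum was lower in Th17 (4.33 to 11.4 against 14.2 to 30.1 CPM).

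The genes that were lower included both axonemal dynein heavy chains Dnah7a (chr1:53396995-53707301) and Dnah3 (chr7:119921332-120095297), parts of the motor of cilia. Dnah7a had no count in Th17 and 21.6 ± 2.84 CPM in Th1 (at least 374-fold lower), and Dnah3 none and 14.9 ± 1.63 CPM (at least 257-fold lower). Dnah7a has near-identical copies, so its value is uncertain. Chl1, a neural cell adhesion molecule (chr6:103510584-103733038), was 212 ± 61.4 CPM in Th1 and 0.163 ± 0.136 CPM in Th17 (1150-fold lower). Tmod2, a neuronal tropomodulin (chr9:75565621-75611342), had no count in Th17 and 12 ± 9.22 CPM in Th1 (at least 208-fold lower), with Th1 1 well above the other Th1 libraries (28.5 CPM against 9.38 CPM in the next).

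**Figure D5:**
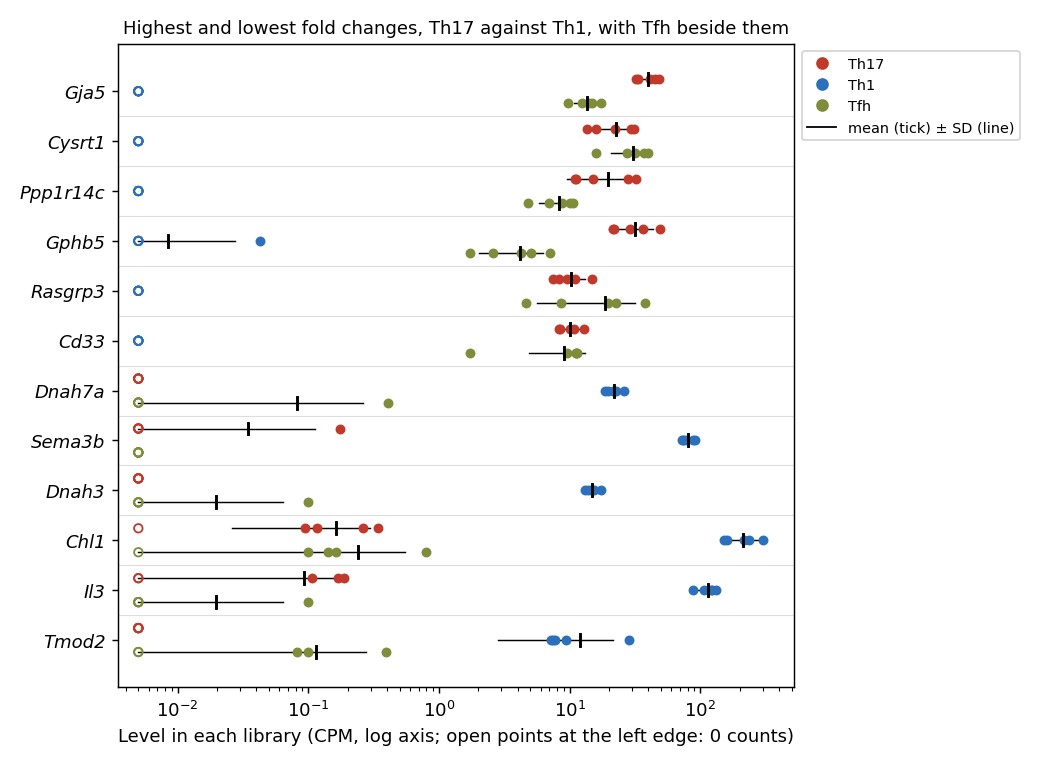
Level of the 6 genes with the highest and the 6 with the lowest fold changes in every Th17, Th1 and Tfh library, in CPM on a log axis, with the mean as a tick, the SD as a line and libraries with 0 counts as open points at the left edge. Tfh libraries overlap the Th17 range for Cysrt1, Rasgrp3 and Cd33, lie below it for Gja5 and Gphb5, and lie near 0 with the Th17 libraries for the 6 genes that were lower.

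The Tfh libraries give a level for the same genes in the remaining condition. The comparison of Th17 with Tfh shares the Th17 libraries, and 2113 of 12591 genes (16.8%) were called in it by the same test. Gja5 was 39.8 ± 7.02 CPM in Th17 and 13.7 ± 2.86 CPM in Tfh, so it was higher in Th17 than in both (log2 fold change against Tfh 1.55 ± 0.21, edgeR adjusted p = 0.000141, and 1.65 without Tfh 1). Gphb5 (2.94 ± 0.35 against Tfh, 2.95 without Tfh 1) and Gcnt2 (1.18 ± 0.21, 1.40 without) were also higher in Th17 than in Tfh. Il2 was 0.338 ± 0.472 CPM in Tfh and differed from Th17 by 6.99 ± 0.55 (6.80 without Tfh 1). Ppp1r14c was higher in Th17 than in Tfh (1.24 ± 0.35, edgeR adjusted p = 0.0253), a call lost without Tfh 1 (1.11, adjusted p = 0.0533). Other genes had close levels in Th17 and Tfh: Cxcr6 was 60.5 ± 9.58 CPM in Tfh (0.31 ± 0.19, edgeR adjusted p = 0.285) and Il17re 42.8 ± 7.36 CPM (0.03 ± 0.26, adjusted p = 0.965). Klf2 (95.2 ± 17.5 CPM), Sox4 (152 ± 41.7 CPM), Tox2 (59.6 ± 26.2 CPM) and Ikzf3 (897 ± 154 CPM) were higher in Tfh than in Th17, and each passed the test of that difference with and without Tfh 1.

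Some abundant members of these roles differed little between Th17 and Th1, by the criterion that the 95% interval of the log2 fold change lay within -0.5 to 0.5. Pyruvate kinase, Pkm, was 1720 ± 229 CPM in Th17 and 1720 ± 308 CPM in Th1 (interval -0.27 to 0.28), and Eno1 774 ± 140 and 757 ± 184 CPM (-0.33 to 0.40). The interferon receptor chains Ifngr1 (-0.23 to 0.37) and Ifnar2 (-0.21 to 0.30) lay in the same range. Their partner chains Ifngr2 and Ifnar1 were tested but not named by this rule. So did the surface proteins Cd52 (-0.15 to 0.41) and Bsg (-0.39 to 0.09), and the GTPase and G protein genes Rac1 (-0.40 to 0.11) and Gnai2 (-0.08 to 0.38). The mitochondrial ADP/ATP carrier Slc25a5 (-0.25 to 0.19), the calcium pump Atp2a2 (-0.02 to 0.40) and the transcription factors Satb1 (0.02 to 0.45) and Ikzf1 (-0.02 to 0.45) complete this set. An interval of this width leaves room for small differences in these genes. For Rac1 and Ikzf1 the 5 Th17 and 5 Th1 libraries did not overlap. Some of the set gained a call under an alternative. Examples are Rac1 with the GC correction (log2 fold change -0.29, edgeR adjusted p = 0.0479) and Satb1 with the replicate block (0.23, adjusted p = 0.0378). Bsg did so with the replicate block and GC correction (-0.29, adjusted p = 0.0147).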

How the data were processed

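RNA of sorted cells was made into libraries with Lexogen's SENSE kit for mRNA, per the labels' protocols. The authors deposited raw read counts per gene ID. Reads were aligned with STAR 2.7.2b to mm10 and counted with featureCounts 1.6.4, per the submitters' processing notes. Annotation, strand setting and handling of multiply matching reads: not given in the sources used here, so genes with near-copies or overlaps are uncertain. RefSeq gave names and GRCm38.p6 coordinates for 25275 of 27179 IDs and GENCODE for 18, while 1886 had none.

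Groups follow the condition in the labels. The analysis used edgeR 4.0.16 (R 4.3.3). Its standard low-count filter over the 3 conditions left 12591 genes and removed 5472 others with a count. Counts of all 15 libraries were fitted with TMM factors and a mean per condition, without covariates. Th17 minus Th1 was tested with the robust quasi-likelihood test, and genes were called at an adjusted p (Benjamini-Hochberg, all genes) under 0.05. The procedure was tested on simulated counts. With no count in a condition, folds are lower bounds against 3 counts over that condition. With 1 to 3 counts, ratios of summed counts have exact (Clopper-Pearson) 95% intervals. Both cover counting error only, since PCR reads are not independent molecules. In single libraries 3 counts correspond to 0.119 to 0.616 CPM.

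The comparison, its 43 gene lists and the rule for named genes were chosen with earlier results of these data known. Lists take every gene name that fits a pattern, and names taken wrongly were removed after values were seen. The rule names, per list and direction, up to 2 genes of the largest fold change among those called, without overlap between the groups and with a mean of at least 10 CPM in the higher group. It adds the 6 highest and 6 lowest over all genes and, per role, up to 2 abundant genes whose interval lay within 0.5 of no change on the log2 scale. It left out usual lineage markers and, over all genes, unnamed IDs and names of Rik, Gm or LOC form, and named 155 genes. A few of these results are not reported here. No 2 libraries of a group agreed within counting noise. Alternatives covered DESeq2 1.42.0, limma-voom (limma 3.58.1), other size factors, filters, a GC correction, glmTreat, the 10 libraries alone, the replicate number as a block, and each library left out.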

Additional observations from a re-analysis of the deposited data

Results flagged for a closer look

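In groups of 5 with a mean of at least 10 CPM, the level of each followed gene was checked for a library whose gap to its nearest neighbour took up most of the group's range. Of 277 gene and group pairs checked, 9 had such a library; chance alone gives about 1 in 20. Th17 2 was high for Bach2 (637 CPM, next 600), Klf2 (32 CPM, next 24.1) and Tgfbr2 (235 CPM, next 194). Th17 1 was high for Il2 (59.8 CPM, next 41.4) and low for Txk (28.8 CPM, next 37.1). Th1 1 was high for Mmp7 (19.1 CPM, next 10.4) and Tmod2 (28.5 CPM, next 9.38). Th1 5 was low for Cxcr2 (29.2 CPM, next 40.9) and Psat1 (474 CPM, next 486).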

How the results depend on the processing

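Beside 4642 genes differing between Th17 and Th1 (2397 higher, 2245 lower), asking for a change above 2-fold with glmTreat gave 1326 (607 higher, 719 lower), since it tests a stricter hypothesis, and against Tfh 138 beside 2113. The replicate block with GC correction gave 3416 lower genes and 3794 differing from Tfh, and the GC correction alone 3234 differing from Tfh; the cause was not tested. A strict filter gave 335 genes at least 4-fold higher beside 509, with fewer genes tested. DESeq2 gave 5033 calls, limma-voom 5002, RLE size factors 4545 and no filter 4815. Leaving out 1 library gave 4096 to 5055 calls (1952 to 2588 higher, 2023 to 2467 lower), 498 to 537 and 632 to 756 at 4-fold or more, and 1613 to 2393 against Tfh. With the replicate block the calls numbered 5487. Each library's deviations from its group mean were correlated between groups, gene by gene. For same-numbered Th1 and Th17 libraries these correlations were 0.347, 0.13, -0.0942, 0.569 and -0.102. The deviations of Th1 libraries 1, 2 and 4, but not 3 and 5, correlated best with those of the Th17 library of their own number. Since not every pair was above 0.1 and no label ties the numbers to a preparation, the numbers were not used as pairs; whether some libraries share a preparation is not known. Of 5300 values of 204 genes under 26 alternatives, 5235 counted as unchanged, 51 lost and 14 gained a call, and 0 counted as turned. Unchanged meant the same direction and side of the threshold. A change of sign also counted as unchanged where neither fit called the gene and the log2 fold change stayed under 2 standard errors. Depth limits the folds of genes near 0 counts in one group.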
